A study of Danio rerio with 26 samples.

Results

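The accessible sites of zebrafish chromosome 3 comprised 1395 consensus ATAC-seq peaks, 5.37% of the 25975 peaks in the list. The members were selected by their chromosome from peaks that had been called on the accessibility signal, so the densities below describe the selection itself and no test was run on them. The chromosome was singled out with its high density and its dense windows already known. The signal came from 17 libraries of untreated wild-type embryos (TLAB strain) at 7 stages, namely 256-cell, high, oblong, sphere, dome, shield and 80% epiboly, with 2 or 3 libraries each. Embryos were freed of yolk, by hand at the 256-cell stage and in buffer at the others, and the cells of whole embryos were used. The 9 other libraries of the series, all at oblong (α-amanitin, pou5f3-KO, sox19b-KO, nanog-KO and naked genomic DNA), add no peaks to this list and were not analysed here. Each entry gives chromosome, start and end and no height, stage or library, so the depth behind a peak is unknown and no spread between replicates can be given. A stretch without a peak is therefore a stretch where none was called, not one shown to be closed.

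In ATAC-seq, the Tn5 transposase cuts DNA that is not wrapped in nucleosomes, and short fragments mark nucleosome-free regions such as active promoters and enhancers. During zygotic genome activation the embryo starts to transcribe its own genes, and maternally supplied factors such as Pou5f3, Sox19b and Nanog bind regulatory elements while the chromatin there opens. Enhancers of developmental genes often lie in groups spread over long stretches around the gene they serve. Zebrafish chromosome 3 carries, among many other genes, the hoxba cluster, whose homeobox genes give cells their position along the body axis, and the major globin cluster, whose genes encode the oxygen carriers of red blood cells. No gene annotation of the build used for these peaks was at hand, so no peak is assigned to these or any other genes.

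Chromosome 3 had the most consensus peaks per Mb of the 25 chromosomes. It held 22.2 ± 10.8 peaks per Mb (SD, n = 62 full bins of 1 Mb), against 18.7 ± 9.44 (SD, n = 1265 bins) on the other 24 chromosomes together, a ratio of 1.19. The difference is smaller than the SD between bins. Chromosomes 7, 23 and 5 followed at 21.9, 21.5 and 21.1 peaks per Mb, each well within 1 SD of chromosome 3. Chromosome 4 was lowest at 10.7, and without it the remaining chromosomes averaged 19.2. By the median bin, chromosome 3 held 20 peaks per Mb, the same as 4 other chromosomes, behind chromosomes 23 and 7. The peaks of chromosome 3 covered 481 kb, or 0.771% of the 62.4 Mb between the first and the last peak, a share that only chromosome 7 exceeded.

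**Figure D1:**
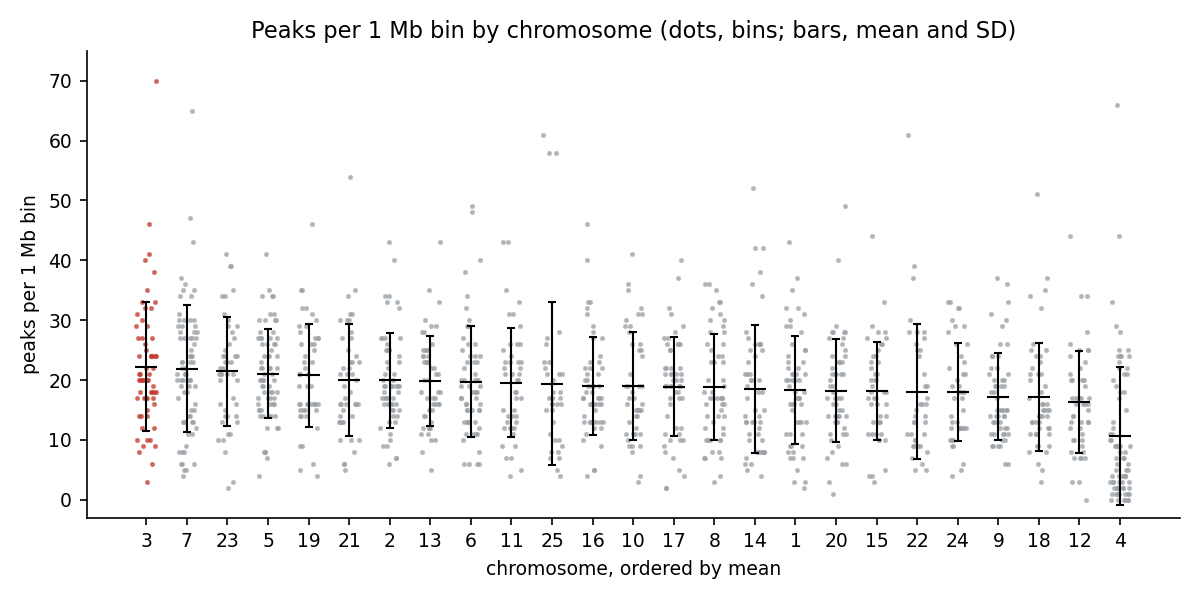
Peaks per full 1 Mb bin (vertical axis) for each chromosome, ordered by mean; dots are bins, and black bars give mean and SD. Chromosome 3 (red) has the highest mean, 22.2, and the highest single bin, 70, while its SD overlaps that of the other chromosomes.

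A single bin stood out from the rest of the chromosome. The bin from 23000001 to 24000000 held 70 peaks, the highest number among all 1327 full bins of the 25 chromosomes, ahead of 66 at the start of chromosome 4. Without this bin, chromosome 3 averaged 21.4 ± 8.92 peaks per Mb (SD, n = 61 bins), below the full means of chromosomes 7 and 23. With the densest bin of every chromosome left out alike, chromosome 3 still had the highest mean, 21.4, with chromosome 7 next at 21.3. The count was similar where windows were not tied to the grid. In windows of 1 Mb opened at every peak, the densest of chromosome 3 ran from 23089103 to 24085586 with 74 peaks, and the next densest chromosome, 25, reached 67.

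Along the chromosome, the means of neighbouring stretches of 10 Mb differed by less than their SD between bins. The first 10 Mb averaged 17.6 ± 9.88 peaks per Mb (SD, n = 10 bins). The following 3 stretches of 10 Mb averaged 24.7, 27.1 and 24.3. Without the bin from 23 Mb, the second of these averaged 22.3 ± 7.58 (SD, n = 9 bins). From 40 to 50 Mb the mean was 21.2 ± 12.3, the result of some of the richest and the poorest bins lying side by side, and from 50 to 60 Mb it was 17.0 ± 6.43. The last 2 full bins, with 30 and 29 peaks, were richer than the mean of any of these stretches. After the bin from 23 Mb, the densest were those from 40 Mb, with 46 peaks, and from 32 Mb, with 41 peaks. The sparsest were the bins from 46 Mb, with 3 peaks, from 51 Mb, with 6, and from 2 Mb, with 8.

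**Figure D2:**
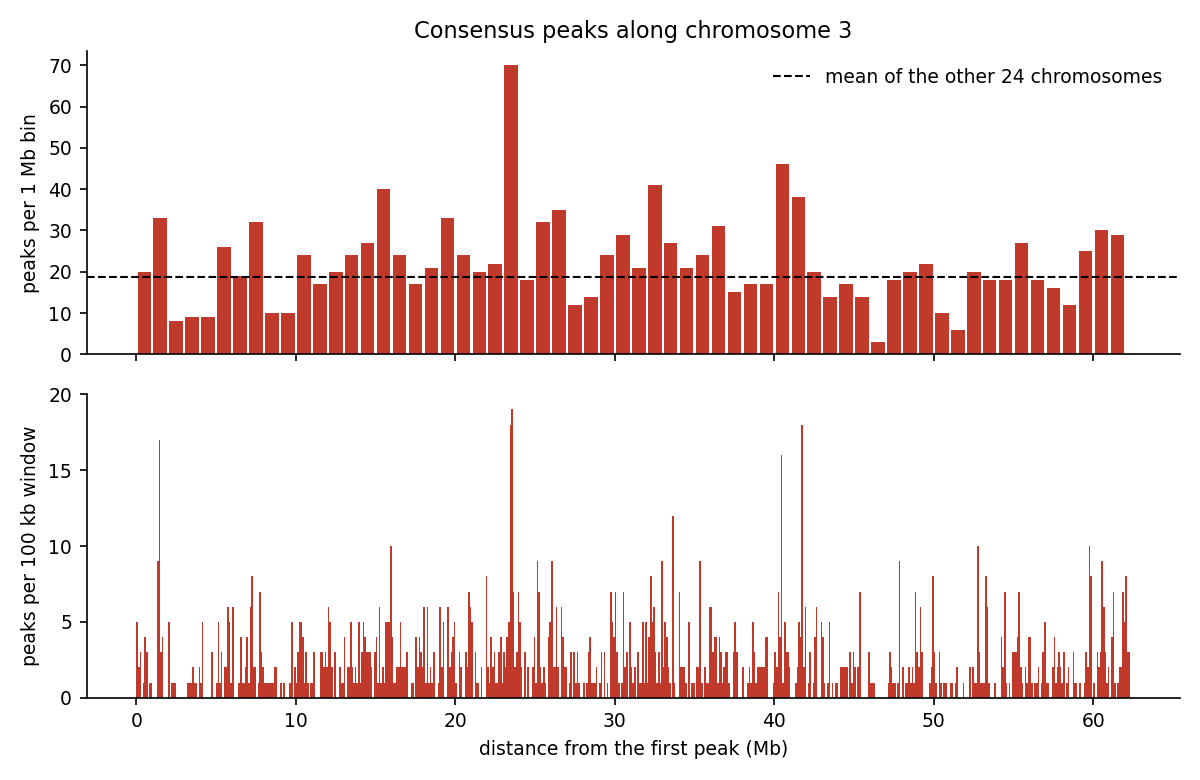
Number of consensus peaks per 1 Mb bin (top) and per 100 kb window (bottom) of chromosome 3 against the distance of the bin from the first peak, in Mb; the dashed line marks the mean of the other 24 chromosomes, 18.7. In the top panel the tallest bar is the bin with 70 peaks, and the lowest, past 46 Mb, is the bin with 3.

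High bins were more common and low bins rarer on chromosome 3 than among the pooled bins of the other chromosomes. In 12 of its 62 bins (19.4%) there were at least 30 peaks, whereas 11.3% of the bins on the other chromosomes reached that number. Fewer than 10 peaks were found in 5 bins (8.06%), against 15.5% elsewhere and 12.4% with chromosome 4 set aside. Of all 62 bins, 37 were at or above the mean of the other chromosomes, that is, held at least 19 peaks. Among the 1265 bins of the other chromosomes, 598 (47.3%) held that many. These shares were compared with the pool only and not with single chromosomes. They therefore do not set chromosome 3 apart from chromosomes of similar density, such as chromosome 7.

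At the finer scale of 100 kb, most windows of chromosome 3 were sparse and a few were crowded. The median window held 1 peak and the upper quartile was 3 peaks, as on the other chromosomes. No peak lay in 162 of its 623 windows (26.0%), against a background of 30.8% of the windows on the other chromosomes, and 20 chromosomes had a higher share of empty windows. At the other extreme, 9 windows (1.44%) held at least 10 peaks, against 1.16% elsewhere, and 7 chromosomes had a higher share. These 9 windows carried 130 peaks, or 9.32% of the chromosome's total. The 6 of them with at least 12 peaks are called A to F here, in their order along the chromosome. On build Zv10, used for all positions here, A began at 1400001, B at 23400001, C at 23500001, D at 33600001, E at 40400001 and F at 41700001. The windows from 15900001, 52700001 and 59700001 held 10 peaks each. Of the 9, only B and C touched each other.

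The upper tail was sharp. Windows A, B, C and F held 17, 18, 19 and 18 peaks and window E held 16, while window D had 12 and the 3 others had 10. Among the 12761 windows of the other 24 chromosomes, only 8 reached 17 peaks and only 5 reached 18. The fullest window of all was not on chromosome 3 but on chromosome 25, with 30 peaks. Chromosomes 4 and 7 also reached 19. On chromosome 3, the windows of 18 or more peaks were B, C and F, of which B and C adjoin. Because these windows were picked for their counts, their numbers describe them and support nothing further.

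The richest region of the chromosome was made of windows B and C, described here together with the less crowded window after them. These 3 windows held 18, 19 and 7 peaks, so that 44 of the 70 peaks of the bin (62.9%) fell within 300 kb, from 23412105 to 23669746. The 7 other windows of the bin held 2 to 7 peaks each, 26 in all. Bounded by gaps of at least 100 kb, the surrounding group of peaks reached from 23237667 to 24145353 and counted 72 peaks in 908 kb. The region of high density was thus much shorter than the group it belonged to.

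Window B was packed at its centre. The 18 peaks spanned 61.9 kb, and the median distance between neighbouring midpoints was 2.21 kb. A run of 8 peaks without a gap over 2 kb stretched over 8.10 kb, from 23438542 to 23446638, and was the longest such run of the chromosome. The first of these peaks, from 23438542 to 23438752, was 211 bp wide and lay only 125 bp from the second, from 23438878 to 23439273. The others began at 23440065, 23441090, 23443303, 23444375, 23445173 and 23446028, with widths of 363, 308, 300, 415, 367 and 611 bp. The gaps inside the run ranged from 125 bp to 1.91 kb, from less than the width of a peak to several widths. The widest peak of the window, of 930 bp, stood outside the run, from 23416839 to 23417768. After peak 16 of the window, no other followed for 16.3 kb.

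The neighbouring window C had 1 peak more but was built differently. Its 19 peaks spread over 91.1 kb, with a median spacing of 3.24 kb, and they fell into small groups set apart by gaps of up to 18.0 kb. The largest group was a run of 4 peaks over 3.95 kb at the far edge, from 23595613 to 23599560. Narrow peaks prevailed in C, where the median width was 275 bp and the widest peak measured 472 bp. In B the median was 365 bp, and 3 peaks reached 600 bp. The difference between these neighbours was not tested.

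Window A, near the start of the chromosome, sat in an isolated group. All 33 peaks of the second 1 Mb bin lay between 1309770 and 1692439, a stretch of 383 kb. On its near side the chromosome had no peak for 353 kb, and on its far side none for 318 kb. The 17 peaks of A spanned 67.5 kb with a median spacing of 3.17 kb. None of its gaps was under 500 bp, and the smallest was 542 bp. The window before it held 9 peaks and the one after it 3. In windows of 100 kb opened at every peak, the densest of the whole chromosome was found here, with 22 peaks from 1377685 to 1474522. Chromosomes 25 and 7 reached 38 and 26 by the same count.

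Wide peaks stood together in this window. Those from 1435148 to 1435816, from 1438155 to 1439001 and from 1440126 to 1440930 followed each other and measured 669, 847 and 805 bp. They were flanked on both sides by peaks of exactly 200 bp, the lowest width in the list. Widths thus ranged over the 17 peaks from 200 to 847 bp, with a median of 356 bp.

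Windows E and F lay in neighbouring 1 Mb bins. Window F held 18 peaks over 76.7 kb, with a median spacing of 3.35 kb. In its first part, single peaks followed each other in similar steps, and the midpoints of peaks 2 to 6 were 4.65, 4.24, 4.44 and 3.35 kb apart. In its last part the peaks drew together. A run of 5 peaks covered 5.25 kb from 41763706 to 41768959, and a run of 4 peaks covered 4.50 kb from 41775356 to 41779855. Each run opened with its widest peak, of 827 bp in the first and 639 bp in the second. The windows on both sides of F held 4 and 2 peaks, so the crowding ended at about the window's edges.

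The peaks of window E had no very close neighbours. Its 16 peaks spanned 95.6 kb, nearly the whole window, with a median spacing of 4.50 kb. The smallest gap was 1.06 kb, while A, B, C, D and F had between 2 and 7 gaps of up to 1 kb each. Its widths ran from 206 to 498 bp, with a median of 374.5 bp, the highest median of the 6 most crowded windows. The adjoining windows held 4 and 1 peaks.

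Window D held the fewest peaks of the 6 and was the most compact. Its 12 peaks were confined to 27.9 kb, from 33606356 to 33634282, with a median spacing of 1.51 kb. The window before it had no peak and the one after it had 1. It also held a peak of 1059 bp, which only 2 others on the chromosome exceeded, from 33608424 to 33609482, with 11 other peaks within 50 kb.

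**Figure D3:**
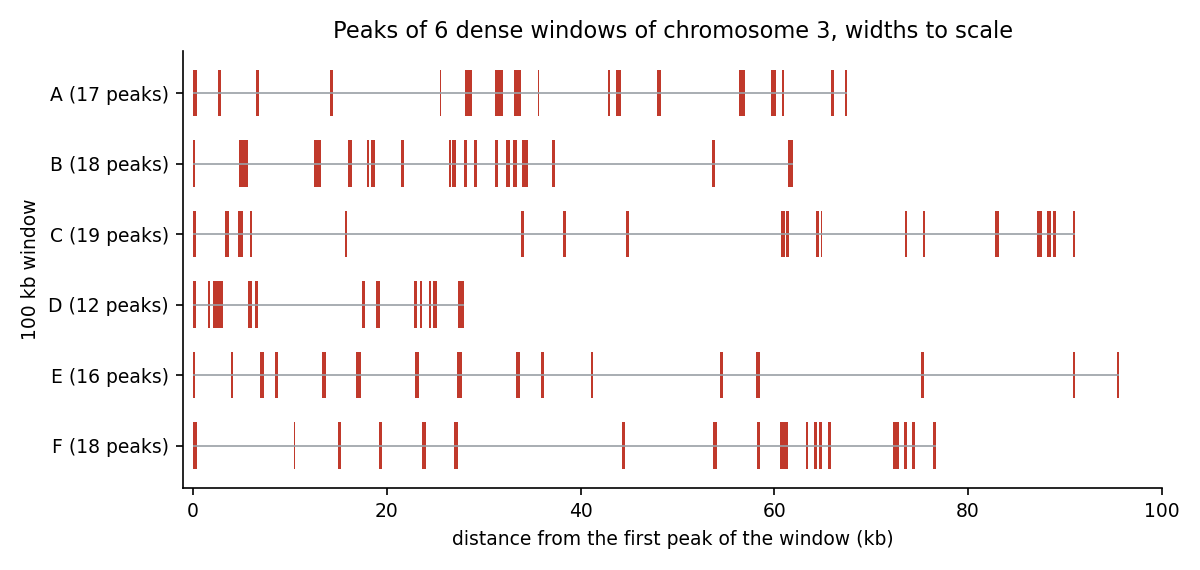
Peaks (red, width to scale) of the 6 windows of 100 kb with 12 or more peaks on chromosome 3, against the distance in kb from the first peak of each window; A to F begin at 1400001, 23400001, 23500001, 33600001, 40400001 and 41700001. The runs of 8 peaks in B and of 5 and 4 peaks in F stand out, E has no gap under 1.06 kb, and the 12 peaks of D occupy 27.9 kb.

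In windows A, B, C, D and F, runs of at least 3 peaks with gaps of up to 2 kb extended over 2.44 to 8.10 kb. Window E held no such run. Windows A to F were covered by peaks over between 4.99% and 7.16% of their 100 kb. Their 100 peaks had a median width of 343.5 bp (quartiles 240 and 413.5), and the 1295 other peaks of the chromosome had a median of 318 bp (quartiles 266 and 387). Of the former, 9 were at least 600 bp wide, and of the latter 53 (4.09%). The middle range of the other peaks lay inside that of windows A to F, which was wider at both ends. The difference was not tested.

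The median width rose with crowding on chromosome 3 and on the rest of the genome. Peaks that were alone in their 100 kb window had a median width of 307.5 bp on chromosome 3 and 303 bp elsewhere. In windows of 2 to 4 peaks the medians were 313 and 311 bp, and in windows of 5 to 9 peaks they were 324.5 and 325 bp. In windows of 10 or more they were 337 and 347 bp. The medians thus differed by at most 10 bp in each class, far less than the width of the quartile ranges. The lower quartiles parted in the most crowded class. From windows of 5 to 9 peaks to those of 10 or more, the lower quartile fell from 271.75 to 260 bp on chromosome 3. Elsewhere it rose from 270 to 283 bp. This difference was not tested.

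Over all its peaks, chromosome 3 had ordinary widths. The median was 319 bp, with quartiles of 265 and 388.5 bp, against 315 bp with quartiles of 263 and 390 bp on the other chromosomes. Exactly 200 bp were given for 52 peaks (3.73%), against 3.27% elsewhere. Only 5 peaks (0.358%) were wider than 1 kb, against 0.319% elsewhere. The widest reached 1328 bp, from 47820527 to 47821854, and 17 peaks on other chromosomes were at least as wide. The second, of 1235 bp, ran from 6077258 to 6078492. After the peak of window D came those of 1043 bp, from 11860853 to 11861895, and of 1002 bp, from 47835197 to 47836198. The peaks of 1328 and 1002 bp lay close to each other, and between them was a run of 5 peaks over 2.73 kb, from 47825656 to 47828383. Each of them had 8 other peaks within 50 kb, whereas the peak of 1043 bp had 2.

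Neighbouring peaks lay closer together on chromosome 3 than on most chromosomes. Gaps had a median of 17.9 kb (quartiles 4.39 and 53.0 kb), against 21.6 kb (quartiles 4.80 and 64.4 kb) on the others. Only chromosome 7 had a shorter median gap, of 17.4 kb. Of the peaks, 41.8% had another within 5 kb, against 40.5% elsewhere, and 6 chromosomes had a higher share. The shorter median gap came with nearly the same share of close neighbours. Gaps of up to 500 bp made up 82 of 1394 (5.88%), against 4.90% elsewhere.

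**Figure D4:**
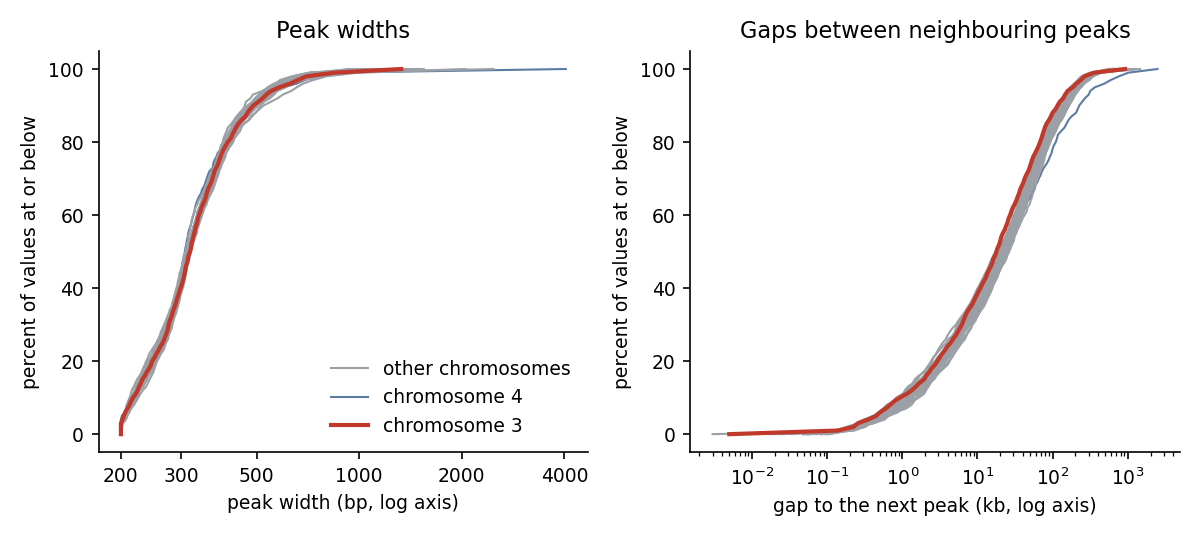
Cumulative distribution of peak widths (left, bp) and of gaps between neighbouring peaks (right, kb) on log axes for chromosome 3 (red), chromosome 4 (blue) and each other chromosome (grey). The width curve of chromosome 3 lies within the others (median 319 bp), and its gap curve runs along their left edge (median 17.9 kb).

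Runs with gaps of up to 2 kb were short. On chromosome 3, 1019 of its peaks (73.0%) belonged to no such run, against 74.7% on the other chromosomes. There were 12 runs of at least 4 peaks, which held 56 peaks (4.01%, against 2.98% elsewhere). After the run of 8 peaks in window B, the longest had 6 peaks over 3.43 kb, from 25138069 to 25141502. That run lay outside the crowded windows, as did the 5 peaks between the wide peaks of 1328 and 1002 bp. The longest run of the other chromosomes had 15 peaks.

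Long empty stretches were about as frequent on chromosome 3 as elsewhere, at 9.46 gaps of at least 200 kb per 10 Mb, against 10.2 on the other chromosomes. Of the 1394 gaps on chromosome 3, 59 (4.23%) were that long, against a background of 5.41%, a share that also falls as the number of gaps rises. They added up to 29.3% of its span, against 33.2% on the other chromosomes and 31.1% when chromosome 4 was set aside. Gaps of at least 400 kb occurred 6 times, which is 0.962 per 10 Mb, against 1.88 elsewhere and 1.67 without chromosome 4. The longest gap, of 916 kb, ran from 46267638 to 47183752, and the second, of 818 kb, from 2424519 to 3242216. Only 18 gaps of the other chromosomes were as long as the first. These 2 gaps of at least 800 kb came to 0.321 per 10 Mb, against 0.188 elsewhere and 0.0750 without chromosome 4. At this length the order was thus the opposite of that at 400 kb, but it rests on only 2 gaps.

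The places of the longest gaps were not compared with those on other chromosomes. The third gap, of 546 kb, from 4177565 to 4723955, followed the second. The fourth, of 534 kb, from 45375743 to 45909630, preceded the first. The fifth, of 459 kb, ran from 49276260 to 49735668. In windows of 100 kb, the stretch from 46300001 to 47100000 was empty over 8 windows and the stretch from 2500001 to 3200000 over 7. Most empty windows were not part of such stretches. The 162 empty windows formed 96 separate runs, of which 61 were a single window and 17 were 3 or more.

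The ends of chromosome 3 held unequal numbers of peaks. The first peak began at position 387, close to the start of the sequence, and the next began at 22051, 32642, 34364 and 96402. In the 1 Mb from the first peak there were 20 peaks, 0.900 times the 22.2 peaks per Mb between the end regions of the chromosome. Only 3 of the 48 ends of the other chromosomes had fewer, and their median was 39. The last peak ended at 62372516, and those before it began at 62278806, 62288875, 62349132 and 62369543. The 1 Mb before the last peak held 34 peaks, 1.53 times the density between the end regions. That number lay within 1 SD of the other ends, which had 38.7 ± 12.8 peaks (SD, n = 48 ends). Unequal ends were not particular to chromosome 3. Chromosome 7 held 20 and 63 peaks in its first and last 1 Mb, and chromosome 4 held 66 and 16. Chromosome 17, by contrast, held 34 in both.

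The low count at the start extended inward, interrupted by the group around window A. Over 500 kb the start held 11 peaks and the last 500 kb held 24, against a median of 24 at the other ends. Over 2 Mb the start reached 53 peaks and the end 71, against a median of 63. The rise from 20 to 53 peaks came from the group around window A, which held all 33 added peaks. The bins from 2, 3 and 4 Mb then held 8, 9 and 9 peaks, so 3 of the 5 bins under 10 peaks lay here. Over 3 Mb the start held 61 peaks, and only 1 of the 24 other starts held fewer, while the end held 100, against a median of 84. In the outermost 100 kb both ends held 5 peaks, 1 fewer than the median of 6.

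**Figure D5:**
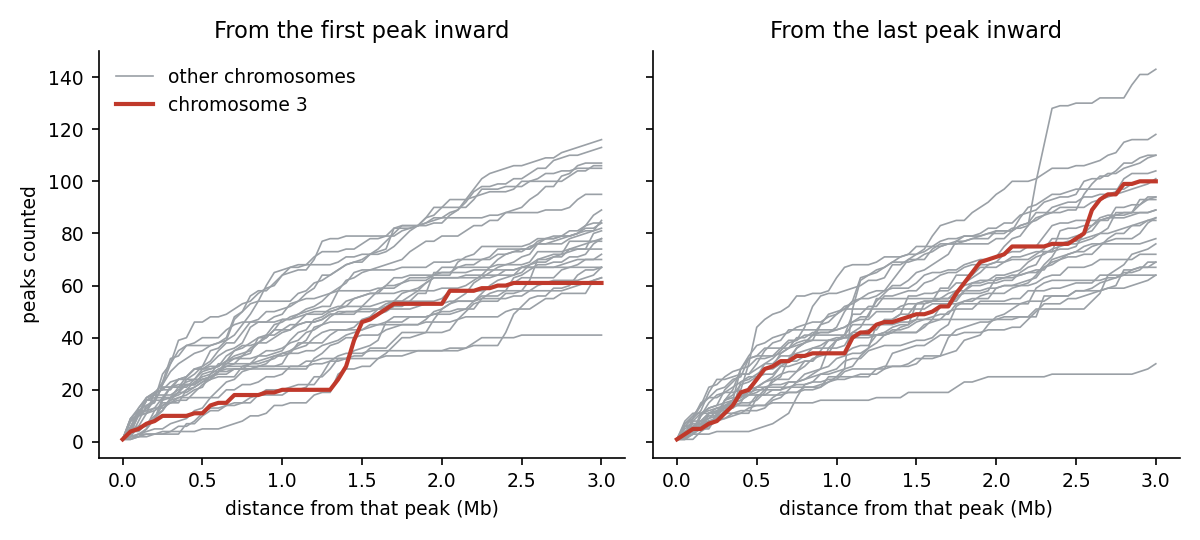
Number of peaks counted inward from the first peak (left) and from the last peak (right) against distance in Mb, for chromosome 3 (red) and each other chromosome (grey). From its start, chromosome 3 reaches 20 peaks and stays there until the steep rise at the group around window A, and from its end it runs among the others, with 34 peaks at 1 Mb.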

How the data were processed

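Open chromatin was profiled by ATAC-seq in wild-type zebrafish embryos. The authors trimmed reads with cutadapt 1.9.1, aligned them with Bowtie2 2.2.4 to build Zv10, discarded duplicates and poorly or mitochondrially mapped reads, and corrected cut sites for the Tn5 offset. MACS2 2.1.1 peaks of nucleosome-free fragments, called by stage on pooled replicates against naked genomic DNA, were kept when found in every replicate and merged over the wild-type stages. The deposited list holds peak positions in bp. Unmappable repeats lose peaks, and merging removes the stage.

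All values were computed in Python 3.11.15 (pandas 2.3.3, numpy 2.4.6, and scipy 1.17.1 for binomial intervals) and drawn with matplotlib 3.10.9. The list does not say how starts are counted. They were taken as 0-based, because the lowest width is then 200 bp, and are printed 1-based. Peaks were assigned by midpoint to bins of 1 Mb and windows of 100 kb counted from the chromosome start. The last, incomplete bin was left out. Gaps run from the end of a peak to the start of the next. Functions were checked on simulated positions.

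The chromosome, the windows and the lists were chosen with earlier results of these data known. Regions named are windows of at least 12 peaks, the 3 densest and 3 sparsest bins, the 5 longest gaps, the 5 widest peaks and the 5 peaks at each end. Other regions (the windows of 10 peaks, the runs of close peaks, the groups between long gaps and the single peaks of dense windows) were picked after their values were seen. Peaks and bins are not replicates, and no test was run. No sequence or annotation of Zv10 was used here, so peaks at promoters were not counted and no sequence is shown.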

Additional observations from a re-analysis of the deposited data

How the results depend on the processing

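Of 60 values under alternative settings, for 15 results, 51 stayed within the range allowed for them. That range was 1 SD over bins, a 95% interval of a share or median, or 1.5 times a count. For the rank it was the same rank. This tally is a weak check. The SD over bins, 10.8 peaks per Mb, is so wide that the range holds the mean of every other chromosome except chromosome 4. The 95% intervals treat peaks and windows as independent, though they are not replicates. Joining peaks no more than 100 bp apart could not change windows A to F, where the smallest gap was 109 bp. For shifted windows, the higher count of the shifts was taken. Chromosome 3 had 20.9 to 22.4 peaks per Mb and ranked first of 25 under 8 alternatives set beforehand. Bins of 500 kb and 2 Mb give the same mean on chromosome 3, because they leave out the same part at its end. Leaving out the bin from 23 Mb on chromosome 3 alone gave rank 3, which follows from its being one-sided, and leaving out the densest bin of every chromosome gave rank 1. Both were chosen after seeing the data. Other bin starts and merging, also chosen later, kept the most crowded 1 Mb of the genome on chromosome 3, with 74 peaks, and 66 after merging against 63 at most elsewhere. Joining peaks no more than 500 bp apart took the median width to 324 bp, the median gap to 20.1 kb and the share with a neighbour within 5 kb to 35.2%, which follows from the joining. It took window D from 12 to 8 peaks and window B from 18 to 14. Within 2 kb the share was 24.5% (22.2% elsewhere), and within 20 kb it was 72.8% (68.9% elsewhere). The first 500 kb and 2 Mb held 11 and 53 peaks, and the last 2 Mb held 71, since the length counted differs. Window F held 12 peaks at most when windows were shifted by 50 kb, against 18. Peaks at promoters were not run. Leaving out a replicate was not possible, and what depth limits is unknown. No paired analysis was possible because the positions carry no values by replicate.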

Other observations

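Peaks of exactly 200 bp, the lowest width in the list, were found at both extremes of crowding on chromosome 3. They made up 8 of 152 peaks (5.26%) that were alone in their 100 kb window and 6 of 130 (4.62%) in windows of 10 or more peaks. In windows of 2 to 4 and of 5 to 9 peaks the shares were 3.64% and 3.17%. On the other 24 chromosomes the share fell over the same classes, from 4.60% to 3.49%, 2.58% and 2.37%. The counts on chromosome 3 are small, and the difference in the most crowded class was not tested.

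Very short gaps were also counted. Of the 1394 gaps on chromosome 3, 17 (1.22%) were shorter than 150 bp, against 0.851% on the other chromosomes. The shortest gap of the chromosome was 5 bp. These values were not tested.

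Between gaps of at least 100 kb, the group of peaks around window E counted 44 peaks over 839 kb, and the group around window F counted 38 peaks over 604 kb. The group around window A, with 33 peaks over 383 kb, had the highest density of the 4 such groups measured, at 86.2 peaks per Mb. The group around window B followed at 79.3. Window D, whose 12 peaks lay within 27.9 kb, was not among the groups measured, so this order leaves it out.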
